A study of Mus musculus with 8 samples.

Results

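Foxp3 and the 5 members of the Ikaros family of zinc finger genes, Ikzf1 to Ikzf5, were followed across naïve CD4 T (here naïve), TFH, Treg, and TFR cells of peripheral lymph nodes (pLN). The 6 genes were taken by their names in the array files, where they are represented by 12 of the 39429 probes. They are 6 of 29889 gene names with a value on every array, and all 6 are among the 15748 genes that could be tested. The cells came from B6.Cg-Foxp3<tm1Mal> mice, in which cells that express Foxp3 also produce EGFP. All animals were 8 to 14 weeks old and immunized subcutaneously with KLH in alum, so that the naïve and Treg cells are also those of immunized mice. Each sample was a pool of cells from 8 to 15 mice of mixed gender, sorted at d12 or d25 after immunization, and 25 ng of RNA per pool went onto a one-color array. The study sorted naïve cells as EGFP-PD1-GL7-, TFH cells as EGFP-PD1hiGL7+, Treg cells as EGFP+PD1-GL7-, and TFR cells as EGFP+PD1hi cells, either GL7+ or GL7-. Since EGFP reports Foxp3, the gap in Foxp3 between EGFP+ and EGFP- cells follows from the gate and is given here as a check of the labels.

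Foxp3 is the forkhead transcription factor that defines Treg cells and is needed to keep their program running. The Ikaros family binds DNA through N-terminal zinc fingers and forms dimers through a C-terminal pair, and its members mostly silence genes by recruiting chromatin remodeling and histone deacetylase complexes. Ikzf1 (Ikaros), Ikzf2 (Helios), Ikzf3 (Aiolos), and Ikzf4 (Eos) are known from lymphocytes, whereas Ikzf5 (Pegasus) is the most distant relative. Eos is known as a partner of Foxp3 in gene silencing, Helios as a gene of stable Treg cells, and Aiolos as a factor of activated lymphocytes that can silence Il2. TFH cells are the T helpers of germinal centers, and TFR cells are the regulatory cells that share their location and derive mostly from Treg cells.

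Each cell type had 1 array per day, which gives 8 arrays and n = 2 arrays per cell type. The d12 and d25 arrays are the only replicates of a cell type. Since the fit has a term for day, p values set the mean difference between cell types against how far such differences changed between the days. This spread may be technical. Levels are normalized intensities in relative units (RU on the plots) with a floor of 20 units, and between 46.3% and 50.39% of the probes were well above background on an array. Differences are log2 differences averaged over both days ± SE from a limma fit of cell type and day across all genes, with p values adjusted by Benjamini-Hochberg over the 15748 genes, and a difference with an adjusted p under 0.05 is said to be called. All d12 arrays shared a slide, d25 arrays of naïve and TFH cells shared another, and d25 arrays of Treg and TFR cells yet another. Comparisons of TFH with naïve cells and of TFR with Treg cells therefore lie within slides, whereas those between EGFP+ and EGFP- cells set arrays of different slides side by side at d25. Day and slide cannot be told apart. All 10 T cell markers were well above background on every array. B cell markers stood out on the d25 array of TFH cells, where the 11 markers summed to 18633 units, against 6311 to 10511 units on the other arrays. Pax5 was at the floor on all arrays. The 13 myeloid and dendritic cell markers summed to 71602 to 113660 units, with Siglech at 47248 to 82571 and Itgam at 13020 to 28500 units. Antibody-secreting cell markers summed to 759 to 7831 units. Both CD8 T cell markers were well above background on every array. The part of such other cells was not tested.

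The probes that carry the results are 60 bases long, and the middle 30 bases of the main probe of each gene are shown because they are what was measured. They are written 5′ to 3′ in the sense of the transcript, in lower case, with the position that the array files give on the mouse NCBI37 build. Each lies in the listed transcript and thus in an exon.
Foxp3, chrX:7172316-7172345, + strand: gtgcctgaacagctctgcctagtagtgagc
Ikzf1, chr11:11672843-11672872, + strand: atctggtgctatggcactcactgtgaataa
Ikzf2, chr1:69577868-69577897, - strand: ataatttgtccaagatttatttcttctcag
Ikzf3, chr11:98326191-98326220, - strand: acacacaaatagcttagcctgccttgtagc
Ikzf4, chr10:128069536-128069565, - strand: cttctttgagattcaaaccaaaggatgttt
Ikzf5, chr7:138532785-138532814, - strand: ccatgcactatttatagtactttgccataa

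Some probes of different family members resemble each other. Of the 58 pairs of probes that belong to different genes, an Ikzf1 and an Ikzf4 probe matched at 53 of 59 overlapping bases without gaps, and no other pair matched at more than 27. Both are secondary probes. Their shared stretch is shown because a transcript of one gene could bind the probe of the other, with capitals for the bases that match between them.
Ikzf1, probe A_55_P2023612, chr11:11669508-11669537, + strand: GTGGTTATCACAGCCAGGAcaGGTAcGAGT
Ikzf4, probe A_55_P1979682, chr10:128071145-128071174, - strand: GTGGTTATCACAGCCAGGAtcGGTAtGAGT
In spite of the shared bases, these probes behaved differently over the arrays. The Ikzf1 probe was at 252 and 327 units in naïve cells and at 51 and 87 units in TFR cells at d12 and d25. The Ikzf4 probe was at 25 and 38 units in naïve cells and at 90 and 96 units in TFR cells. Each thus ranked these cell types as the main probe of its own gene did, although the d12 TFR value of the Ikzf1 probe and both naïve values of the Ikzf4 probe were not well above background. The main probes lie outside this stretch.

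All 6 genes differed among the 4 cell types in the moderated F test, as did 57.9% of all genes tested, with adjusted p values from 0.000133 for Foxp3 to 0.0327 for Ikzf5. The distance between the lowest and the highest cell type mean was 9.37 on the log2 scale for Foxp3, 7.88 for Ikzf2, 5.50 for Ikzf4, 4.26 for Ikzf3, 1.64 for Ikzf1, and 0.73 for Ikzf5. The largest gap between the days of a cell type was below this distance for every gene, but for Ikzf5 it came to 0.69. As bulk samples, the arrays cannot tell fewer expressing cells from less RNA per cell.

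**Figure D1:**
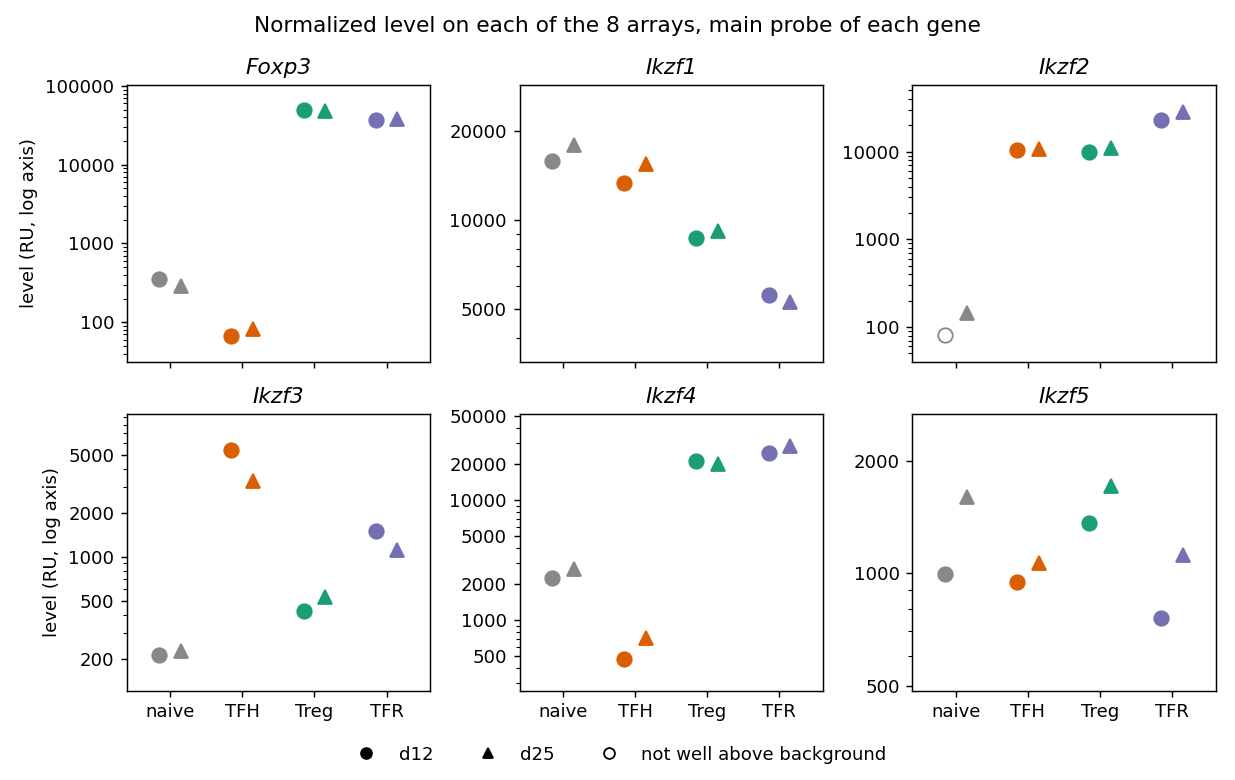
Level of each gene in units (log axis, a different range per panel) on the 8 arrays by cell type, with circles for d12, triangles for d25 and an open symbol where the probe was not well above background. Foxp3 and Ikzf4 were highest in Treg and TFR cells, Ikzf2 was lowest in naïve cells, Ikzf3 was highest in TFH cells, Ikzf1 was lowest in TFR cells, and the Ikzf5 panel spans only 757 to 1708 units.

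Foxp3 matched the sort on every array. Its level was 49260 and 48622 units in Treg cells and 37266 and 37521 units in TFR cells at d12 and d25. It was 358 and 285 units in naïve cells and 66 and 83 units in TFH cells. No array of EGFP+ cells came near an array of EGFP- cells. TFR cells had less Foxp3 than Treg cells on both days, and the difference was not called (-0.39 ± 0.17, adjusted p = 0.133). Background correction by normexp gave nearly the same value and a call (-0.41, adjusted p = 0.0268).

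Within the EGFP- cells, Foxp3 fell from naïve to TFH cells by 2.11 on the log2 scale, which is 4.33-fold (SE 0.17, adjusted p = 0.000977). In this comparison 46.7% of all genes tested were called. Naïve and TFH arrays did not overlap in Foxp3, and the probe was well above background on all of them. Levels there were 66 to 358 units, against 37266 to 49260 units in EGFP+ cells. The part of any EGFP+ cells left in the naïve and TFH sorts was not tested. The change in EGFP+ cells differed from that in EGFP- cells by 1.72 ± 0.24 (adjusted p = 0.0216, 8.52% of genes called). With normexp background correction both values were smaller, as TFH and naïve cells differed by -1.05 (adjusted p = 0.000609) and the difference between the changes was 0.64 (adjusted p = 0.0498). In the main setting this last call was lost when the d12 array of naïve cells or any array of Treg or TFR cells was left out, with adjusted p values from 0.0638 to 0.114.

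Ikzf1, the founding member of the family, was the only one of the 6 genes whose level was lowest in TFR cells on both days and by a call against each of the others. It was 15842 and 17996 units in naïve cells, 13357 and 15552 units in TFH cells, 8702 and 9175 units in Treg cells, and 5564 and 5291 units in TFR cells. On the main probe, arrays of the EGFP+ cells all lay below those of the EGFP- cells. Ikzf1 was lower in TFR than in Treg cells with a difference of -0.72 ± 0.11 (adjusted p = 0.0077, 39.8% of genes called), lower in TFR than in TFH cells with -1.41 ± 0.11 (adjusted p = 0.00203, 22.2% called), and lower in Treg than in naïve cells with -0.92 ± 0.11 (adjusted p = 0.0108, 9.89% called). TFR cells also lay below naïve cells (-1.64 ± 0.11, adjusted p = 0.000494) and Treg below TFH cells (-0.69 ± 0.11, adjusted p = 0.0076).

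TFH and naïve cells are neighbors in this order, and the main probe called no difference between them (-0.23 ± 0.11, adjusted p = 0.138). The other Ikzf1 probes gave a larger fall in TFH cells that was called, with -0.77 ± 0.20 (adjusted p = 0.029) for A_55_P2023607 and -0.57 ± 0.12 (adjusted p = 0.0171) for A_55_P2023612. A_55_P2023607 is listed for an Ensembl transcript alone, at chr11:11661344-11661403, upstream of the main probe. Both also placed TFR cells further below Treg cells than the main probe did, at -1.64 ± 0.20 and -1.29 ± 0.12. Treg and TFH arrays overlapped on both. At d12 A_55_P2023607 read 717 units in Treg and 589 units in TFH cells. A_55_P2023612 read 195 units in Treg cells at d25 and 164 units in TFH cells at d12. Treg versus TFH cells was not tested with these probes. The Treg versus naïve call was lost with A_55_P2023607 (-0.86, adjusted p = 0.0643), with slide in place of day (-0.82, adjusted p = 0.0605), and without any of the 4 arrays of these cells (-0.97 to -0.86, adjusted p up to 0.0969). The TFR versus Treg call was lost without either Treg array or the d25 TFR array (-0.74 to -0.60, adjusted p up to 0.0585).

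Ikzf2, which encodes Helios, was low in naïve cells and high in the other 3 cell types. It was 81 and 145 units in naïve cells, where only the d25 array was well above background. In TFH cells it was 10507 and 10816 units, in Treg cells 9918 and 11104 units, and in TFR cells 22901 and 28621 units. TFH and Treg arrays thus overlapped, whereas both TFR arrays lay above all others. TFH cells exceeded naïve cells by 6.62 ± 0.21 (adjusted p = 0.00013) and Treg cells exceeded them by 6.59 ± 0.21 (adjusted p = 0.000762). The size of these differences is uncertain, since 1 of the 2 naïve arrays was not above background, and with normexp they were 5.29 and 5.30. Treg and TFH cells were not told apart (-0.02 ± 0.21, adjusted p = 0.942, 39.9% of genes called). TFR cells were above Treg cells by 1.29 ± 0.21 (adjusted p = 0.00969) and above TFH cells by 1.26 ± 0.21 (adjusted p = 0.0163).

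The second Ikzf2 probe lies upstream, at chr1:69584008-69584067, and was at the floor on both arrays of naïve cells. There only a lower bound holds, obtained by taking for naïve cells the lowest signal that was well above background on each array. It gave a level at least 23.6-fold higher in TFH and at least 18.2-fold higher in Treg than in naïve cells. The probe read 1275 and 1485 units in TFH cells, 1263 and 889 units in Treg cells, and 2528 and 2225 units in TFR cells. It thus repeated the TFR arrays as the highest (1.16 ± 0.19 above Treg cells, adjusted p = 0.00969, and 0.79 ± 0.19 above TFH cells, adjusted p = 0.0433). The gain of Ikzf2 with the follicular phenotype was smaller in EGFP+ than in EGFP- cells, with a difference of -5.33 ± 0.29 (adjusted p = 0.00335), or -4.02 with normexp. The TFR versus Treg call was lost without any of the 4 arrays of these cells (1.17 to 1.40, adjusted p up to 0.0719), and TFR versus TFH was lost without either TFR array or the d25 TFH array (1.07 to 1.28, adjusted p up to 0.118).

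Ikzf3, which encodes Aiolos, was highest in TFH cells. It was 213 and 227 units in naïve cells, 5395 and 3289 units in TFH cells, 424 and 531 units in Treg cells, and 1497 and 1119 units in TFR cells. The 4 cell types did not overlap, in the order naïve, Treg, TFR, and TFH cells. TFH cells exceeded naïve cells by 4.26 ± 0.27 (adjusted p = 0.000528), or 19.1-fold (3.53 with normexp), and TFR cells exceeded Treg cells by 1.45 ± 0.27 (adjusted p = 0.0149). TFR cells remained below TFH cells (-1.70 ± 0.27, adjusted p = 0.0153). The neighbors Treg and naïve cells did not pass the test (1.11 ± 0.27, adjusted p = 0.0748) although Treg arrays were higher on both days.

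The rise of Ikzf3 in EGFP+ cells was smaller than in EGFP- cells, with a difference of -2.81 ± 0.39 (adjusted p = 0.0204), and the values within d12 and within d25 were -2.84 and -2.78. That call was lost without any array of naïve, Treg, or TFR cells (-3.15 to -2.47, adjusted p up to 0.104). The TFR versus Treg call was lost without the d12 Treg array or either TFR array (1.11 to 1.61, adjusted p up to 0.104), and the TFR versus TFH call without either TFR array (-1.86 to -1.54, adjusted p up to 0.111). Aiolos is also a B cell gene. The d25 TFH array had the highest summed B cell marker level. Ikzf3 was at 5395 units on the d12 and 3289 units on the d25 TFH array, which were on different slides. Without the d25 TFH array the TFH versus naïve difference of Ikzf3 was 4.61. Genes of dividing cells were also higher in follicular cells. All 9 proliferation genes tested were called higher in TFH versus naïve and in TFR versus Treg cells (20.9% and 18.8% of all genes). The 10 on the list summed to 19564 and 30498 units on the TFH and 45657 and 73819 units on the TFR arrays. On the other arrays they summed to 3748 to 9967 units. The part of dividing or B cells in the differences of any of the 6 genes was not tested.

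Ikzf4, which encodes Eos, followed the EGFP gate. It was 20969 and 20042 units in Treg cells and 24432 and 28331 units in TFR cells, compared to 2263 and 2647 units in naïve cells and 477 and 707 units in TFH cells. As for Foxp3, the EGFP+ arrays lay far above the EGFP- arrays and naïve cells above TFH cells, without overlap. Treg cells exceeded naïve cells by 3.07 ± 0.16 (adjusted p = 0.00156), or 8.38-fold, and TFR cells exceeded TFH cells by 5.50 ± 0.16 (adjusted p = 0.000428), or 45.3-fold. Ikzf4 fell from naïve to TFH cells by 2.07 on the log2 scale (SE 0.16, adjusted p = 0.000884). With the mean of all probes, the dim one included, TFR exceeded TFH cells by 4.03, Treg exceeded naïve cells by 2.56, and TFH and naïve cells differed by -1.18, all still called. TFR and Treg cells are neighbors in the order of levels and did not pass the test (0.36 ± 0.16, adjusted p = 0.14).

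The change in EGFP+ cells differed from that in EGFP- cells by 2.43 ± 0.23 (adjusted p = 0.00924), a call that was lost without the d12 array of naïve cells or either TFR array (2.42 to 2.45, adjusted p up to 0.0646). A second Ikzf4 probe close to the main one, at chr10:128069604-128069663, ranked the cell types alike. It fell from 1419 and 1596 units in naïve cells to 451 and 554 units in TFH cells, and rose from 13181 and 11369 units in Treg cells to 16338 and 18851 units in TFR cells. This last difference was called there (0.52 ± 0.15, adjusted p = 0.0447). The third probe, in the stretch shared with Ikzf1, was well above background in EGFP+ cells alone, at 89 to 96 units, so that it says nothing of the fall in TFH cells. For it TFR cells were at least 2.49-fold above TFH cells and Treg cells at least 1.58-fold above naïve cells.

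Ikzf5, which encodes Pegasus, varied least. It was 993 and 1602 units in naïve cells, 944 and 1063 units in TFH cells, 1366 and 1708 units in Treg cells, and 757 and 1115 units in TFR cells. Treg arrays lay above the TFR and the TFH arrays, and all other pairs of cell types overlapped. TFR cells were lower than Treg cells with a difference of -0.73 ± 0.15 (adjusted p = 0.0188), and Treg cells were higher than TFH cells by 0.61 ± 0.15 (adjusted p = 0.0305). The second probe, at chr7:138533886-138533945, gave -0.48 ± 0.09 (adjusted p = 0.0164), with 538 and 705 units in Treg and 373 and 525 units in TFR cells. Without a day term the main probe did not pass (adjusted p = 0.117), and the call was also lost without any of the 4 arrays of these cells (-0.81 to -0.65, adjusted p up to 0.121). TFR cells did not differ by call from TFH cells (-0.12 ± 0.15, adjusted p = 0.596), nor TFH (-0.33 ± 0.15, adjusted p = 0.129) or Treg cells (0.28 ± 0.15, adjusted p = 0.315) from naïve cells. Ikzf5 was higher at d25 in all 4 cell types, as was Ikzf2 by its main probe (0.34 ± 0.15, adjusted p = 0.201 in limma). The day effect of Ikzf5 had an unadjusted p below 0.05 in limma (0.44 ± 0.11), but it was not called (adjusted p = 0.0952). None of the 6 was called between the days by limma, and only Ikzf5 had an unadjusted p below 0.05, compared to 0.0699% of all genes tested that were called (0.0191% higher and 0.0508% lower at d25).

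**Figure D2:**
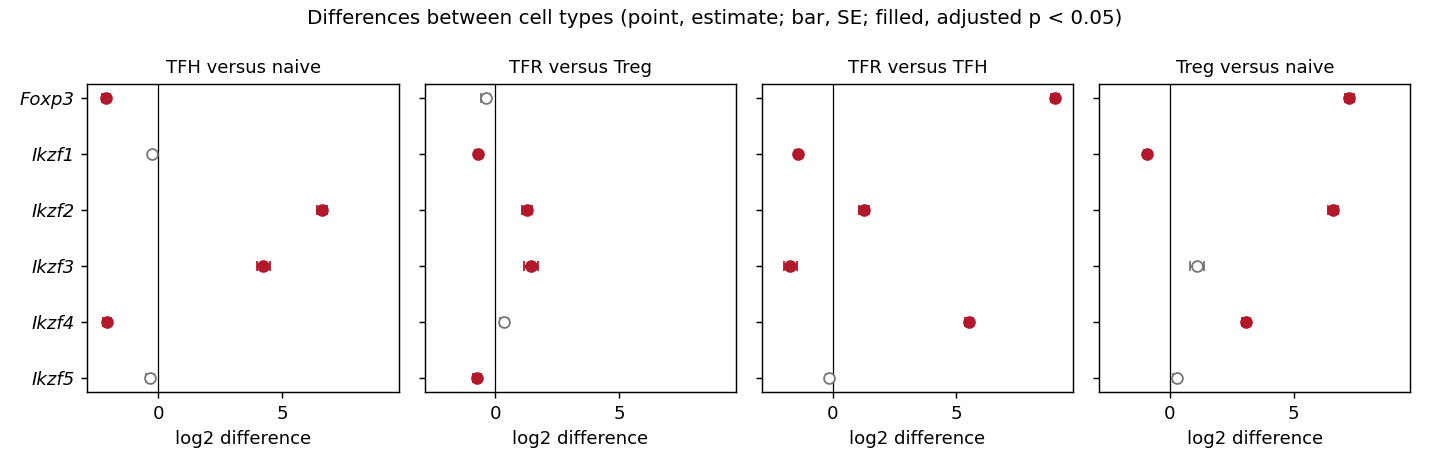
Log2 difference of each gene in 4 comparisons of cell types (point, estimate; bar, SE; n = 2 arrays per cell type; filled red, adjusted p below 0.05). TFH versus naïve and TFR versus Treg called 4 genes each (46.7% and 39.8% of all genes), TFR versus TFH called 5 (22.2%), and Treg versus naïve called 4 (9.89%), with Foxp3 called by way of the gate in these last comparisons, and with Foxp3 and Ikzf4 on opposite sides of 0 between TFH versus naïve and TFR versus TFH.

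Seen over the 4 comparisons, TFH versus naïve cells called 2 of the 6 genes higher (Ikzf2 and Ikzf3) and 2 lower (Foxp3 and Ikzf4), against 20.9% and 25.7% of all genes. TFR versus Treg cells called Ikzf2 and Ikzf3 higher and Ikzf1 and Ikzf5 lower, against 18.8% and 21.0% of all genes. These shares are high, so that 4 calls among 6 genes are not far from the 46.7% and 39.8% of all genes called. Ikzf2 and Ikzf3 therefore rose with the follicular phenotype in both lineages, each by less in EGFP+ cells. Foxp3 and Ikzf4 fell in EGFP- cells and were not called in EGFP+ cells, and for both the difference between the changes was called. Ikzf1 and Ikzf5 fell by call in EGFP+ cells alone, yet the change did not differ by call from that in EGFP- cells for Ikzf1 (-0.49 ± 0.15, adjusted p = 0.127) or Ikzf5 (-0.40 ± 0.21, adjusted p = 0.316). With slide in place of day, calls were lost for comparisons that cross slides at d25, that of Ikzf1 given above and Ikzf2 and Ikzf3 in TFR versus TFH cells (adjusted p = 0.0681 and 0.0649). The difference between the changes, made up of differences within slides, kept its value and lost the call for Foxp3 and Ikzf3 (adjusted p = 0.0608 and 0.0548).

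**Figure D3:**
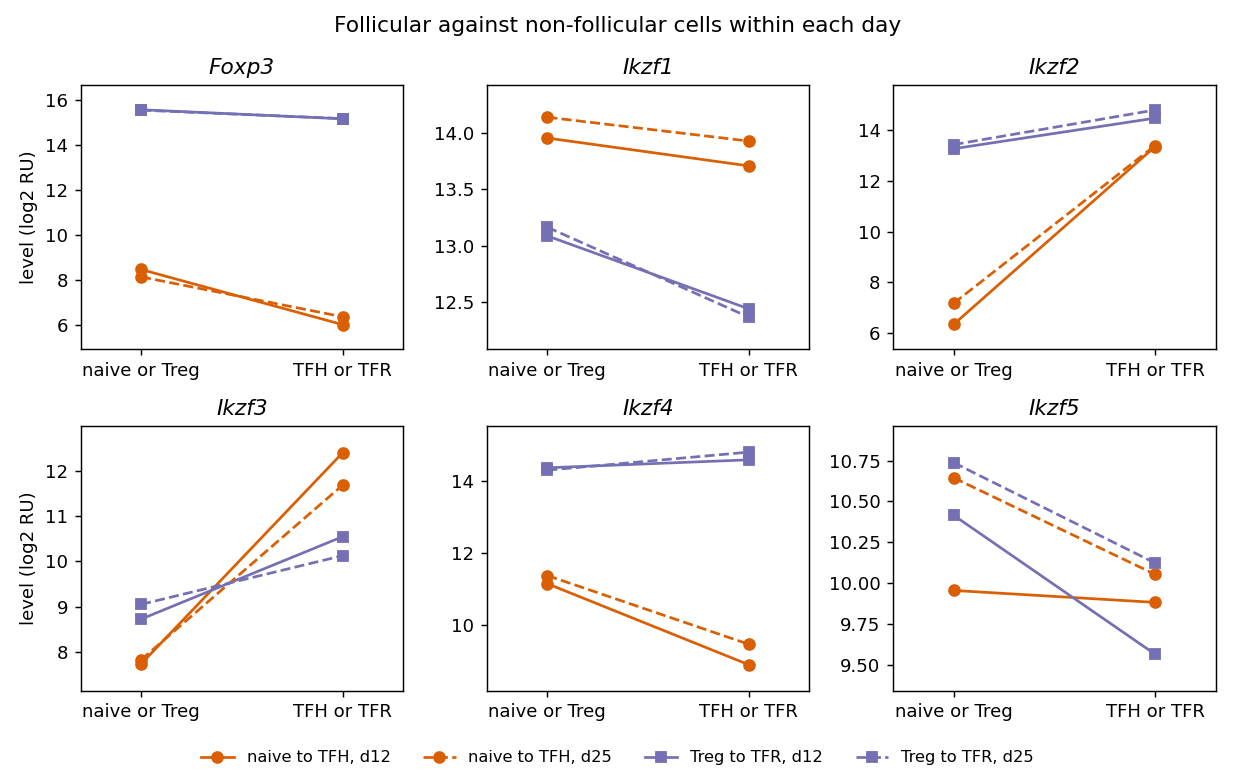
Level of each gene (log2 units, a different range per panel) joined from naïve to TFH cells (orange) and from Treg to TFR cells (violet), solid for d12 and dashed for d25. The lines of Ikzf2 and Ikzf3 rise in both colors and more steeply in orange, those of Foxp3 fall in both and more steeply in orange, those of Ikzf4 fall in orange and rise slightly in violet, and the Ikzf5 lines of the days are apart.

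Calls turned on the probe for Ikzf1, whose difference between TFH and naïve cells was called by 2 of 3 probes, and whose Treg versus naïve call was lost with A_55_P2023607. They did so too for Ikzf4 in TFR versus Treg cells, called by 1 of 3 probes. With the dim Ikzf4 probe A_55_P1979682 the TFH versus naïve difference (0.13, adjusted p = 0.576) and the difference between the changes (-0.12, adjusted p = 0.819) turned sign and were not called. The TFR decrease of Ikzf1 and the TFR increase of Ikzf2 were called by every probe of the gene, as was the rise of Ikzf4 in both comparisons of EGFP+ with EGFP- cells.

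**Figure D4:**
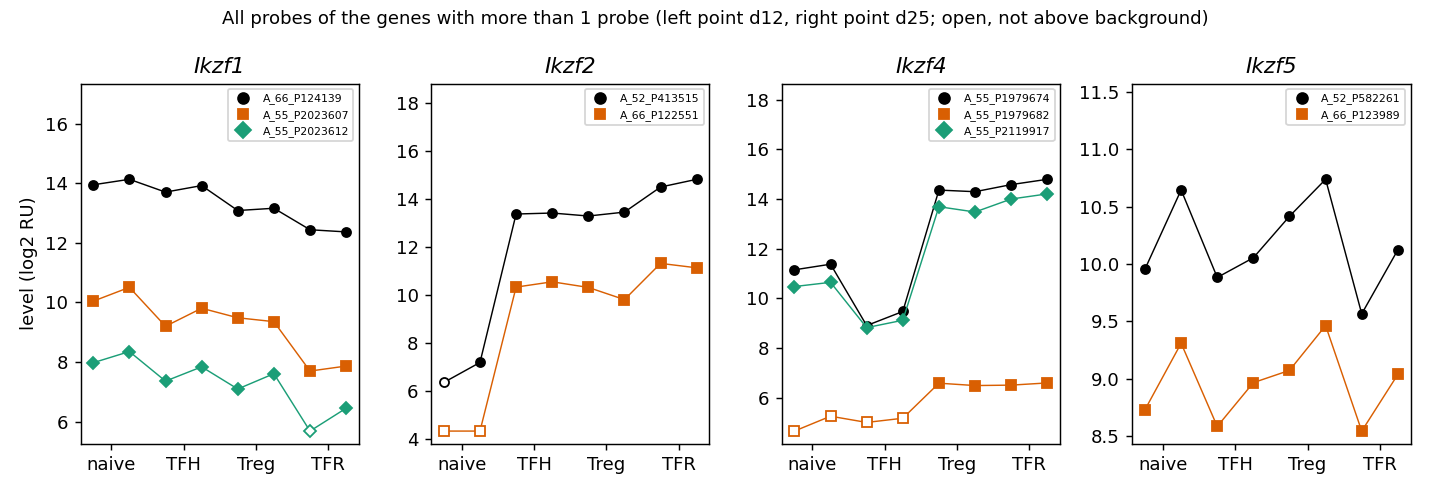
Level (log2 units) of every probe of the 4 genes with more than 1 probe, in the order naïve, TFH, Treg, and TFR cells with d12 left of d25, and open symbols for values not well above background. The curves of a gene mostly have a similar course, but the dim Ikzf4 probe A_55_P1979682 was not above background in naïve and TFH cells, at 25 to 38 units, Ikzf1 probe A_55_P2023607 was higher in Treg than in TFH cells at d12, and Ikzf2 probe A_66_P122551 fell from d12 to d25 in Treg and TFR cells where the main probe rose.

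For each gene, the genes with the most similar pattern were taken by the root mean square difference of log2 levels, centered on the mean over the 8 arrays. This is a description over 4 cell types and 2 days. Lrrc32 (GARP, which holds latent TGFβ on Treg cells) and Il2ra (CD25, the high affinity IL2 receptor chain) were closest to Foxp3, at 0.54 and 1.13 compared to an SD of 4.42 for Foxp3 itself. Cish, a SOCS family gene induced by IL2, and She, an SH2 adaptor gene, were closest to Ikzf4, at 0.27 and 0.32 with an SD of 2.43. Like Ikzf4, Cish fell from naïve cells, at 2282 and 3296 units, to 686 and 723 units in TFH cells, and stood at 26697 to 34640 units in the EGFP+ cells. Gadd45b, a stress response gene, and Marcksl1 were closest to Ikzf3 (0.36 and 0.37, SD 1.72). LOC102634533 and Tcf7, the gene of the T cell factor TCF1, were closest to Ikzf1 (0.13 and 0.14, SD 0.69). Myo1e, a class I myosin, and Gjb2, a connexin, were closest to Ikzf2 (0.62 and 0.86, SD 3.31) and were at the floor in naïve cells at d12. Eif4g2 and Crkl were closest to Ikzf5 (0.11 and 0.12, SD 0.40). Among the 6 genes, Ikzf4 was closest to Foxp3 (1.94), and Ikzf1 and Ikzf5 were closest to each other (0.66).

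Most genes that mark Treg cells were higher in Treg than in naïve cells and in TFR than in TFH cells. Of 24 such genes, Ikzf2 included, 22 were higher and none lower in Treg than in naïve cells, compared to 5.91% of all genes called higher. These genes were listed as Treg markers, with earlier results of these data known, so that the count is a check of the labels. By unadjusted p below 0.05 the counts in limma were 23 higher and 0 lower. Their median difference was 3.76, against -0.01 over all genes tested. Lrrc32 differed by 8.19 ± 0.22 (adjusted p = 0.000654), Il2ra by 6.92 ± 0.12 (adjusted p = 0.000295), and Socs2, a SOCS family gene like Cish, by 5.62 ± 0.27 (adjusted p = 0.00122). The other 2 genes were Tnfrsf9 (-0.03, adjusted p = 0.941) and Il10 (3.22, adjusted p = 0.129). In TFR versus TFH cells 19 were higher and none lower (11.7% of all genes higher), with 0 lower by unadjusted p in limma and a median of 2.55 against -0.02. Lrrc32, Il2ra, and Cish led the genes measured on every array with 8.45, 6.17, and 5.34.

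Part of this list also rose within the EGFP- cells. In TFH versus naïve cells 12 of the 24 were higher and 3 lower (20.9% and 25.7% of all genes). Ebi3, a cytokine subunit, rose by 3.88 ± 0.15 (adjusted p = 0.000174), Ctla4, the inhibitory receptor, by 3.84 ± 0.10 (adjusted p = 8.38e-05), and Nt5e, the ectonucleotidase CD73, by 3.70 ± 0.22 (adjusted p = 0.000441). Ikzf2 is one of these 12. In TFR versus Treg cells 12 were higher and 3 lower (18.8% and 21.0% of all genes), with Tigit (4.75 ± 0.42, adjusted p = 0.00215), an inhibitory receptor, Il10 (3.54 ± 1.04, adjusted p = 0.0493), and the inhibitory receptor Klrg1 (2.56 ± 0.42, adjusted p = 0.0101). The change in EGFP+ cells minus that in EGFP- cells was called negative for 10 and positive for 1 (4.47% and 4.04% of all genes). The positive one is Cish, which fell from naïve to TFH cells (-1.96 ± 0.14, adjusted p = 0.000655) and was not called in TFR versus Treg cells (-0.21, adjusted p = 0.263). Without the d25 TFH array, 13 were higher and 6 lower in TFH versus naïve cells and 16 higher in TFR versus TFH cells.

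Of 13 genes known to be low in cells with Foxp3, 11 were lower in Treg than in naïve cells and none was higher (3.99% of all genes lower), while 0 were higher by unadjusted p in limma. This list was also chosen with earlier results of these data known, so that its count is likewise a check of the labels. Pde3b, a cAMP phosphodiesterase, differed by -3.74 ± 0.22 (adjusted p = 0.0019), Il2, which both Foxp3 and Aiolos are known to silence, by -3.24 ± 0.20 (adjusted p = 0.00201), and Dapl1 by -2.93 ± 0.11 (adjusted p = 0.000861). Satb1 (-0.86, adjusted p = 0.287) and Ifng (0.51, adjusted p = 0.517) were not called. In TFR versus TFH cells 7 were lower and 1 higher (10.5% and 11.7% of all genes), the latter being Il7r, the IL7 receptor chain (2.10, adjusted p = 0.0107). Pde3b differed by -5.22 ± 0.22, Il2 by -4.31 ± 0.20, and Themis, a T cell signaling gene, by -2.58 ± 0.18. Il2 was 805 and 632 units in naïve cells, 1375 and 987 units in TFH cells, and 54 to 83 units on the 4 arrays of EGFP+ cells. It was thus higher in TFH than in naïve cells (0.71 ± 0.20, adjusted p = 0.0374).

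In the follicular comparisons, 7 of the 13 were lower and 2 higher in TFH than in naïve cells, against 25.7% and 20.9% of all genes. Without the d25 TFH array 8 were lower and 1 higher. In TFR versus Treg cells 9 were lower and 1 higher, against 21.0% and 18.8% of all genes. Igfbp4, an IGF binding protein gene, fell most in both, with differences of -6.57 ± 0.16 (adjusted p = 8.08e-05) and -5.52 ± 0.16 (adjusted p = 0.000366). Dapl1 (-5.09 ± 0.11) and Il7r (-4.73 ± 0.29) followed in TFH cells. Satb1, a chromatin organizer, fell in TFR cells (-3.55 ± 0.44, adjusted p = 0.00486), whereas Ifng rose there (4.05 ± 0.43, adjusted p = 0.00337).

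Among 26 genes of proteins that bind Foxp3, Ikzf1, Ikzf3, and Ikzf4 included, some were called in each comparison. In Treg versus naïve cells 5 were higher, 1 was lower (5.91% and 3.99% of all genes), and 20 were not called, and Ikzf4 was followed, among genes measured on every array, by Irf4, a factor of activated T cells (1.62 ± 0.18, adjusted p = 0.00922). In TFR versus TFH cells 6 were higher and 4 lower (11.7% and 10.5% of all genes). Among genes measured on every array, Runx3, a Runt factor gene, was second to Ikzf4 with 2.89 ± 0.30 (adjusted p = 0.00501), and it fell from naïve to TFH cells (-2.93 ± 0.30, adjusted p = 0.00196). In TFH versus naïve cells 6 were higher and 5 lower (20.9% and 25.7% of all genes), with Hif1a, the hypoxia factor, up by 3.40 ± 0.19 (adjusted p = 0.000371). In TFR versus Treg cells 6 were higher and 2 lower (18.8% and 21.0% of all genes), with Hdac9, a histone deacetylase, up by 1.73 ± 0.32 (adjusted p = 0.014) and Ezh2, the histone methyltransferase of Polycomb, from 2221 and 2285 to 6188 and 5892 units (adjusted p = 0.00354). Without the d25 TFH array, 7 were higher and 3 lower in TFH versus naïve cells and 5 higher and 3 lower in TFR versus TFH cells.

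Of 24 genes that act on the Foxp3 locus, Nr4a3 failed to exceed background on both arrays in every cell type and 23 were tested. In Treg versus naïve cells 4 were higher and 1 lower (5.91% and 3.99% of all genes). The lower one was Tet1, a DNA demethylase (-1.52 ± 0.29, adjusted p = 0.0419), and Uhrf1, which guides DNA methylation in dividing cells (1.25 ± 0.16, adjusted p = 0.0149), and Nr4a1 (0.91 ± 0.10, adjusted p = 0.0101) were among the higher. In TFH versus naïve cells 5 were higher and 6 lower, which is about the share over all genes (20.9% and 25.7%), and Bach2, a repressor of effector genes, changed by -3.53 ± 0.15 (adjusted p = 0.000214), Satb1 by -3.34 ± 0.44, and Tet1 by -3.08 ± 0.29. Foxp3 was lower in the same comparison, and whether these changes are linked was not tested. In TFR versus Treg cells 4 were higher and 6 lower (18.8% and 21.0% of all genes), with Uhrf1 (2.49 ± 0.16) and Nr4a2 (2.44 ± 0.41) up. Uhrf1 is also tied to cell division, which differed between these cells as given for the proliferation genes. In TFR versus TFH cells 8 were higher and 2 lower (11.7% and 10.5% of all genes), with Uhrf1 (1.48), Tet1 (1.41), and Bach2 (1.29) leading, and 6 higher and 1 lower without the d25 TFH array.

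Of 17 genes of the NuRD, Sin3, and CtBP complexes, through which Ikaros proteins silence genes, Ctbp2 failed to exceed background on both arrays in every cell type and 16 were tested. None was called in Treg versus naïve cells (9.89% of all genes), where limma gave 2 higher and 0 lower by unadjusted p below 0.05, and the only call in TFR versus TFH cells (22.2% of all genes) was Mta2, a NuRD subunit (-0.53 ± 0.08, adjusted p = 0.0131). In TFH versus naïve cells 2 were higher and 2 lower (20.9% and 25.7% of all genes), with Sin3a at -0.51 ± 0.08, Gatad2a at 0.50 ± 0.09, and Chd3, the NuRD helicase, at -0.41 ± 0.10, and 1 lower without the d25 TFH array. Chd3 (-0.64 ± 0.10, adjusted p = 0.00914), Sin3a (-0.46 ± 0.08, adjusted p = 0.0119), and the deacetylase gene Hdac2 (-1.01 ± 0.20, adjusted p = 0.017) were lower in TFR than in Treg cells, with none called higher and 1 higher by unadjusted p (21.0% of all genes lower and 18.8% higher). Hdac2 was above background on 1 of the 2 TFR arrays. The cereblon ubiquitin ligase marks Ikaros and Aiolos for degradation when bound by thalidomide-type drugs in human cells. Its 5 genes gave 1 call in the 4 comparisons (Cul4b, 0.48 ± 0.13 in TFH versus naïve cells, adjusted p = 0.032). Of all genes, 46.7% were called in TFH versus naïve, 39.8% in TFR versus Treg, 22.2% in TFR versus TFH, and 9.89% in Treg versus naïve cells. In the comparisons without a call, limma gave unadjusted p values below 0.05 for 1 gene in TFR versus Treg, 2 in TFR versus TFH, and 1 in Treg versus naïve cells.

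The forkhead relatives of Foxp3 did not share its pattern. Foxp2 was at the floor on all arrays. Foxp1 fell in TFH versus naïve (-0.84 ± 0.15, adjusted p = 0.0106) and in TFR versus Treg cells (-1.24 ± 0.15, adjusted p = 0.00472), and was not called in Treg versus naïve cells (-0.10, adjusted p = 0.733). Foxp4 rose in TFR cells, by 0.56 ± 0.13 against Treg (adjusted p = 0.0253) and by 0.59 ± 0.13 against TFH cells (adjusted p = 0.0336), a call that was lost without the d25 TFH array.

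Of 10 genes around Bcl6, the master factor of follicular T cells, and IL2 signaling, 4 were higher and 1 was lower in TFH versus naïve cells (20.9% and 25.7% of all genes), and 3 and 1 without the d25 TFH array. Bcl6 rose by 3.94 ± 0.15 (adjusted p = 0.000177) in TFH and by 2.40 ± 0.15 (adjusted p = 0.00102) in TFR cells. It was 83017 and 112808 units in TFH and 23711 and 33238 units in TFR cells, compared to 5277 to 6875 units on the other arrays, so that as for Ikzf3 the TFH arrays were highest and the TFR arrays next. Il2rb, a receptor chain for IL2 and IL15, rose in TFH cells by 2.82 ± 0.13 (adjusted p = 0.000245) and was higher in Treg than in naïve cells by 3.55 ± 0.13 (adjusted p = 0.000857). Prdm1 (Blimp1), which opposes Bcl6, rose in TFR versus Treg (1.38 ± 0.22, adjusted p = 0.00924) and stood above TFH cells by 2.66 ± 0.22 (adjusted p = 0.00257). Il2ra was lower in TFR than in Treg cells (-0.68 ± 0.12, adjusted p = 0.0113) but above TFH cells by 6.17 ± 0.12. Stat3, Stat5a, and Stat5b were not called in any of the 4 comparisons.

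**Figure D5:**
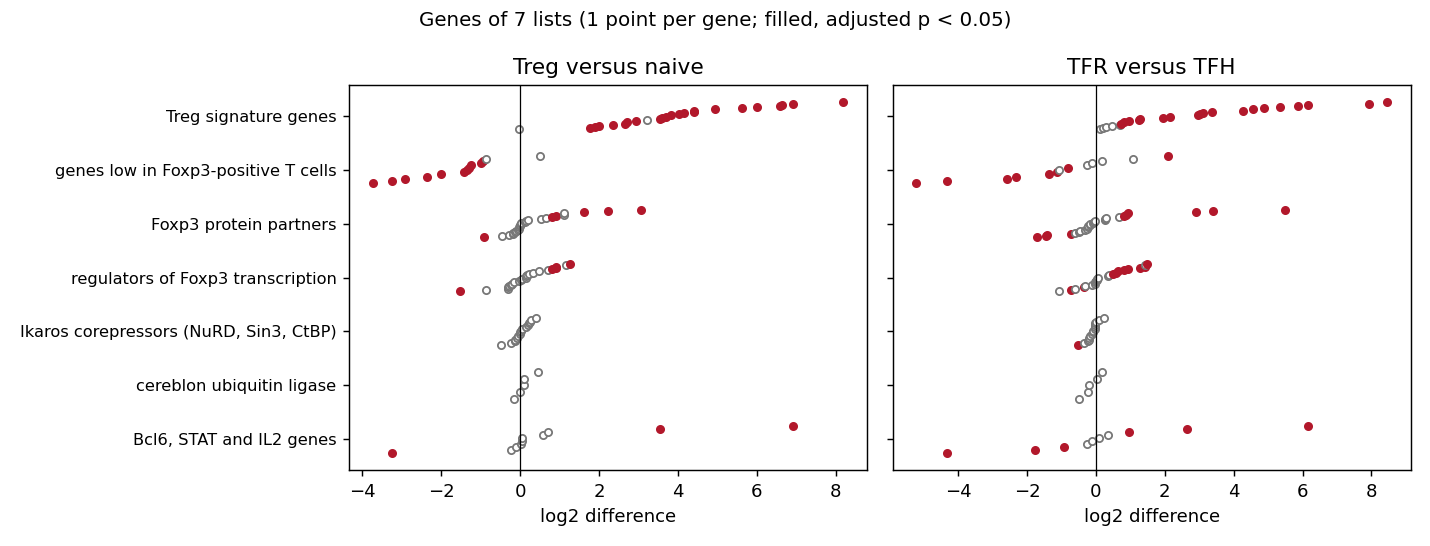
Log2 difference of every tested gene in 7 lists, in Treg versus naïve (left) and TFR versus TFH cells (right), with filled red points for adjusted p below 0.05. Treg signature genes, which were listed as markers of Treg cells, lie to the right of 0, except Tnfrsf9 on the left panel at -0.03. Of these 24 genes 22 and 19 were called higher, whereas corepressor and cereblon genes stay near 0. Points of genes that were not above background in one cell type are fitted values and not folds.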

How the data were processed

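RNA of sorted T cells was amplified in 1 round, labeled, and hybridized to 8 one-color Agilent arrays that hold each probe 4 times. The submitters' processing notes name Agilent Feature Extraction 10.7.3.1. The deposited scanner files hold spot intensities that are background-subtracted within an array. The authors then left out flagged spots, spots far outside the interquartile range, and spots with a pixel variation above 0.5, averaged the rest, quantile normalized the arrays, scaled their 75th percentile to 1500, and set a floor of 20, which gave the deposited table of normalized intensities. These steps were repeated here from the spots so that each could be varied. The result correlated with the deposited table at 0.9994 or higher per array, the brightest 1% of probes came out higher by 0.512 on the log2 scale, and the 6 genes differed from it by at most 0.322. Between 86.45% and 89.18% of the spots were retained. The number of arrays limits the precision.

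For each gene the probe of highest mean log2 level was used, and the gene was tested if more than 50% of the retained spots were well above background on every array of some cell type. Of the tested genes, 84.4% were above background on all arrays. Testing used limma 3.58.1 in R 4.3.3 (lmFit, eBayes, with terms for cell type and day, 3 residual degrees of freedom and 1.91 from the prior). Probes not above background on both arrays of one cell type gave lower bounds in place of folds. From each list, the 3 called genes with the largest differences that were measured on both sides are named, in addition to genes chosen after their values were seen. The members and gene lists were chosen with earlier results of these data known. The code was tested on simulated data. Alternatives covered normalization, background, spot filter, deposited table, probe, floor, dim genes, slide, day, variance trend, and each array left out. Replicate numbers follow the order of the samples. Probe sequences and positions come from the scanner files and gene symbols from the same files.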

Additional observations from a re-analysis of the deposited data

Results flagged for a closer look

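For 4 of the 6 genes, the change from naïve to TFH cells differed from that between Treg and TFR cells in the test of the difference itself, which called 8.52% of all genes. For Foxp3 the change was -2.11 in EGFP- and -0.39 in EGFP+ cells, a difference of 1.72. Foxp3 was low in the EGFP- cells, at 66 to 358 units, where the part of any EGFP+ cells left by the sort was not tested. With normexp its change there was -1.05 and the difference 0.64. For Ikzf4 it was -2.07 and 0.36, a difference of 2.43. For Ikzf2 it was 6.62 and 1.29, a difference of -5.33. For Ikzf3 it was 4.26 and 1.45, a difference of -2.81. The Ikzf2 call was kept under all 19 alternatives tested, whereas those of Foxp3, Ikzf3, and Ikzf4 were lost under 7 of 19, 8 of 19, and 5 of 21.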

How the results depend on the processing

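Of 30 differences between cell types for the 6 genes, 21 were called, and 10 of these were kept under all of the 19 to 21 alternatives tested for each. The other 11 were lost under at least 1, and 4 of the 9 differences that were not called passed under at least 1. No alternative moved the median of all genes by more than 0.1 on the log2 scale. Restricting the test to genes above background on all arrays left no value for Ikzf2.

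Without the filter on dim genes, more genes entered the adjustment and the values stayed as they were, but calls were lost for Foxp3 (1.72), Ikzf3 (-2.81), and Ikzf4 (2.43) in the difference between the changes, for Ikzf1 in Treg versus naïve cells (-0.92), for Ikzf2 (1.29), Ikzf3 (1.45), and Ikzf5 (-0.73) in TFR versus Treg, and for Ikzf2 (1.26) and Ikzf3 (-1.70) in TFR versus TFH cells. With slide in place of day, the calls were lost for Foxp3 (1.72) and Ikzf3 (-2.81) in the difference between the changes, Ikzf1 in Treg versus naïve (-0.82), and Ikzf2 (1.36) and Ikzf3 (-1.83) in TFR versus TFH cells. Without a day term that of Ikzf5 in TFR versus Treg cells (-0.73) was lost, and with probe A_55_P2023607 that of Ikzf1 in Treg versus naïve cells (-0.86). Calls were gained for Foxp3 in TFR versus Treg cells with normexp (-0.41), for Ikzf1 in TFH versus naïve cells with the mean of all probes (-0.52) and with each other probe (-0.77 and -0.57), for Ikzf3 in Treg versus naïve cells with an intensity trend (1.11), and for Ikzf4 in TFR versus Treg cells with probe A_55_P2119917 (0.52). The cause was not tested. Among calls that were kept, normexp lowered Foxp3 in TFH versus naïve cells to -1.05 and in the difference between the changes to 0.64, and the mean of all probes moved Ikzf1 in TFR versus Treg cells to -1.22 and Ikzf4 in TFH versus naïve cells to -1.18 and in the difference between the changes to 1.48.

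The sign turned for Ikzf4 with the dim probe A_55_P1979682 in TFH versus naïve cells (0.13) and in the difference between the changes (-0.12). It also turned for values that were not called, which were Ikzf5 in TFR versus TFH cells with its second probe (0.016) and within d25 (0.069), Ikzf2 between the days with its second probe (-0.12), and Foxp3 between the days without quantile normalization (-0.084) and in the deposited table (-0.0022).

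The genes called fell from 6262 to 3865 in TFR versus Treg, from 3493 to 1645 in TFR versus TFH, from 1558 to 687 in Treg versus naïve cells, from 1341 to 421 in the difference between the changes, and from 57.9% to 19.7% of the genes tested in the F test without the filter on dim genes, which adds dim genes to those tested. With slide in place of day they were 1368 in TFR versus TFH, 531 in Treg versus naïve cells, and 703 in the difference between the changes, and without a day term 2215, 1004, and 820. Of the genes called in Treg versus naïve cells, 59.7% were higher, and 70.8% with slide in place of day. Between the days, 11 genes were called, against 28 without quantile normalization, 895 with normexp, 6 with all spots kept, 0 with the mean of all probes, 69 with a floor of 50, 0 without the filter on dim genes, 856 with genes above background on all arrays, and 1145 with an intensity trend.

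With each array left out in turn, the difference between the changes ranged from 1.49 to 1.96 for Foxp3, from -3.17 to -2.45 for Ikzf3, and from 2.21 to 2.66 for Ikzf4. In TFR versus Treg cells the range was -0.84 to -0.60 for Ikzf1, 1.17 to 1.40 for Ikzf2, 1.11 to 1.78 for Ikzf3, and -0.81 to -0.65 for Ikzf5. In TFR versus TFH cells it was 1.07 to 1.46 for Ikzf2, -2.06 to -1.35 for Ikzf3, and -0.30 to 0.052 for Ikzf5, and in Treg versus naïve cells -0.97 to -0.86 for Ikzf1. Foxp3 between the days ranged from -0.11 to 0.11. The genes called ranged from 4323 to 6511 in TFH versus naïve, 2524 to 6758 in TFR versus Treg, 950 to 2939 in TFR versus TFH, 423 to 1885 in Treg versus naïve cells, 303 to 1111 in the difference between the changes, and 35.9% to 55.8% of the genes tested in the F test, with 0 between the days. The lowest counts came without the d12 array of naïve cells for TFH versus naïve, of TFR cells for TFR versus Treg, TFR versus TFH, and the F test, and of Treg cells for Treg versus naïve cells and the difference between the changes, and other arrays of the cells compared also lowered a count by more than 1.5 times. A lone array of a cell type was assumed to vary like the other cell types. The day term sets arrays of the same day against each other, and its removal is given above.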
